A study of Homo sapiens with 12 samples.

Results

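Axon guidance ligands and receptors were examined for contact with the nuclear lamina in naive and primed H9 human embryonic stem cells. The set held 41 genes, 17 of ligands and 24 of receptors, chosen by gene name from the SLIT and ROBO, netrin, semaphorin and ephrin systems, among 19974 protein-coding genes of the autosomes and X. The choice was made with earlier results of these data known. Lamina-associated domains (LADs), parts of chromosomes held close to the protein meshwork under the nuclear envelope, had been mapped by pA-DamID, in which an antibody against lamin B1 (LMNB1) tethers a fusion of protein A with the adenine methylase Dam. Naive cells were kept in RSeT medium and primed cells in mTeSR, both untreated, and each state had 3 LMNB1 libraries and 3 Dam-only libraries, the control for how open the DNA is. All 12 libraries came from the 1 line H9, and whether the 3 libraries of a group were separate cultures is not stated in the labels. The files used here hold 1 list of LAD intervals per state, made of 10 kb windows with no score, so replicate error is unknown, no difference between naive and primed was tested, and no p-value is given. A gene is called in a LAD here if LAD intervals covered 50% or more of its body, taken from the first to the last base of the RefSeq gene. The naive list held 9178 intervals and the primed list 5671. The files hold no expression values, so the levels of these genes and their markers in these cells were not analysed here.

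Growing axons are steered by secreted or membrane-bound ligands that attract or repel the growth cone through receptors on its surface. SLIT proteins are repellents read by ROBO receptors. Netrin-1 attracts through DCC and repels through UNC5 receptors, class 3 semaphorins act through neuropilins paired with plexins, and ephrins bind EPH receptor tyrosine kinases. Most of these genes are known for roles in neural development rather than in pluripotent cells, and many are long genes with large introns, a kind of gene often found in LADs.

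The start regions of 6 members carry the contrasts described below and are shown first. The 10 kb window at the SLIT3 start lay in a naive LAD only. The start windows of PLXNA2, EPHA4 and EFNB2 lay outside LADs in both lists although most of the body was covered in 1 of them, and those of SEMA3E and DCC lay in LADs of both. The 250 bases before the outermost annotated start are given 5′ to 3′ on the gene's strand from the RefSeq promoter table (GRCh38.p14), with every CG dinucleotide in capitals. They come from SLIT3 (chr5:169301140-169301389, minus strand), PLXNA2 (chr1:208244385-208244634, minus strand), EPHA4 (chr2:221574203-221574452, minus strand), EFNB2 (chr13:106535663-106535912, minus strand), SEMA3E (chr7:83649140-83649389, minus strand) and DCC (chr18:52339947-52340196, plus strand).
SLIT3: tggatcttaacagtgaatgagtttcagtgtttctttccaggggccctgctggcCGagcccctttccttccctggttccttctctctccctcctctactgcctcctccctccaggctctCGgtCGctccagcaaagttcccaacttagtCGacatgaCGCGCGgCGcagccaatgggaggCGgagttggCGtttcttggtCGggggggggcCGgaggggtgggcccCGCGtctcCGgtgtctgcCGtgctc
PLXNA2: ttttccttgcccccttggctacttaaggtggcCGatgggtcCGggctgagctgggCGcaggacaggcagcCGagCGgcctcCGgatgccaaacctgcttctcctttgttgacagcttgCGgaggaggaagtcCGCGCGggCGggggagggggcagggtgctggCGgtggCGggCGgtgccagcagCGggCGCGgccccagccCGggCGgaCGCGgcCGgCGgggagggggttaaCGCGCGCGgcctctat
EPHA4: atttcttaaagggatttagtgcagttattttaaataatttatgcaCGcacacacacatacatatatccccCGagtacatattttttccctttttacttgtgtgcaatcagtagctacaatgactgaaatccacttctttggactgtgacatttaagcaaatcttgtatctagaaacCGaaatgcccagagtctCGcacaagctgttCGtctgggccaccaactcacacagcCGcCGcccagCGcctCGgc
EFNB2: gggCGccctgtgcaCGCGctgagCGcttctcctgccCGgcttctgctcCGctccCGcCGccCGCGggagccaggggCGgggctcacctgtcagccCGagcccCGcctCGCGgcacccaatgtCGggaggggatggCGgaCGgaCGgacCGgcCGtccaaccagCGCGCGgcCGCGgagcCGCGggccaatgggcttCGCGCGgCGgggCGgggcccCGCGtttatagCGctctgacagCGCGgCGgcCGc
SEMA3E: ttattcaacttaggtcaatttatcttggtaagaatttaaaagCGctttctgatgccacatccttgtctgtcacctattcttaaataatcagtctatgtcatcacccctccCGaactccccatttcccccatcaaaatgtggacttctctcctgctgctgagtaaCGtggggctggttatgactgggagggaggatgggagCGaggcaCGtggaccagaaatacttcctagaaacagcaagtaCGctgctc
DCC: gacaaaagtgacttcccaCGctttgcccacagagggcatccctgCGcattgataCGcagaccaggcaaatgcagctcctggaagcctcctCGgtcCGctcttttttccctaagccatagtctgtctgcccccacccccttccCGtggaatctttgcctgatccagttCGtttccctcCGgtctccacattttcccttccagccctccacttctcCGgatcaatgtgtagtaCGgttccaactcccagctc
CG was found 16 times for SLIT3, 27 for PLXNA2, 9 for EPHA4, 40 for EFNB2, 6 for SEMA3E and 10 for DCC. Only the outermost start of each gene was counted, and other annotated starts can differ in both directions. The start of EPHA4 at 221572304 had 30 CG, and an inner start of SEMA3C had 39 in place of 2. Inner starts of SEMA3E and EPHA6 had 1 CG each, in place of 6 and 26. Over the 35 members in that table, the median CG number was 24 for the 18 starts in LADs of neither state and 13 for the 15 starts in LADs of both. The same medians over protein-coding genes were 18 (12568 starts) and 9 (2323 starts), and 96.9% of all upstream regions held at least 1 CG. The letters GATC, which read the same on both strands and are the site that Dam methylates, occurred in 13 of 35 members and in 5372 of all 15813 upstream regions. These counts describe 250 bases, whereas a LAD call covers 10 kb.

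Naive LADs held 21 of the 41 members and primed LADs 18, against 18.9% and 17.3% of all protein-coding genes. Both states shared 17 members (15.4% of all genes were shared), 4 were in naive LADs only (3.44% of all genes), 1 in primed LADs only (1.89%) and 19 in neither. The median covered share of a member was 64.3% in naive and 0% in primed, and that of all protein-coding genes was 0% in each. Over protein-coding genes of 200 kb or longer it was 65.8% and 21.3%, and over members of that length 94.6% and 97.5%. The naive median of the members is the value of SLIT3, and 21 members stood at 0% in primed. The 2 medians therefore do not measure the size of a change between states. Coverage was close to all or none for most members, with 16 members at 0% in both states and 5 members (DCC, UNC5C, SEMA3C, SEMA5A and EPHA7) at 100% in both. At 0% in both were also 14858 of the 19974 protein-coding genes and 443 of the 1396 of 200 kb or longer. The naive list covered 12.2% of all protein-coding genes at 100%, and no other member. Between these ends in naive lay EPHB1, NRP2, EFNB2, NRP1, SLIT3, SEMA3E, EFNA5 and SEMA3A, at 21.5% to 79.5%. Taken by length, the bodies added up to 14160 kb, of which 64.2% was in LADs of both states, 11.5% in naive LADs only and 2.33% in primed LADs only. Naive LADs covered 75.7% of this length and primed LADs 66.5%. Over all protein-coding genes these shares were 39.2% and 35.0%, and over those of 200 kb or longer 59.1% and 52.9%. Members of 200 kb or longer made up 12220 kb of the length, with 82.5% and 73.7% covered. Near the limit of 50%, NRP1 at 44.5% and EFNB2 at 44.1% in naive stayed outside, while EPHA3 at 54.6% in primed was counted as inside.

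**Figure D1:**
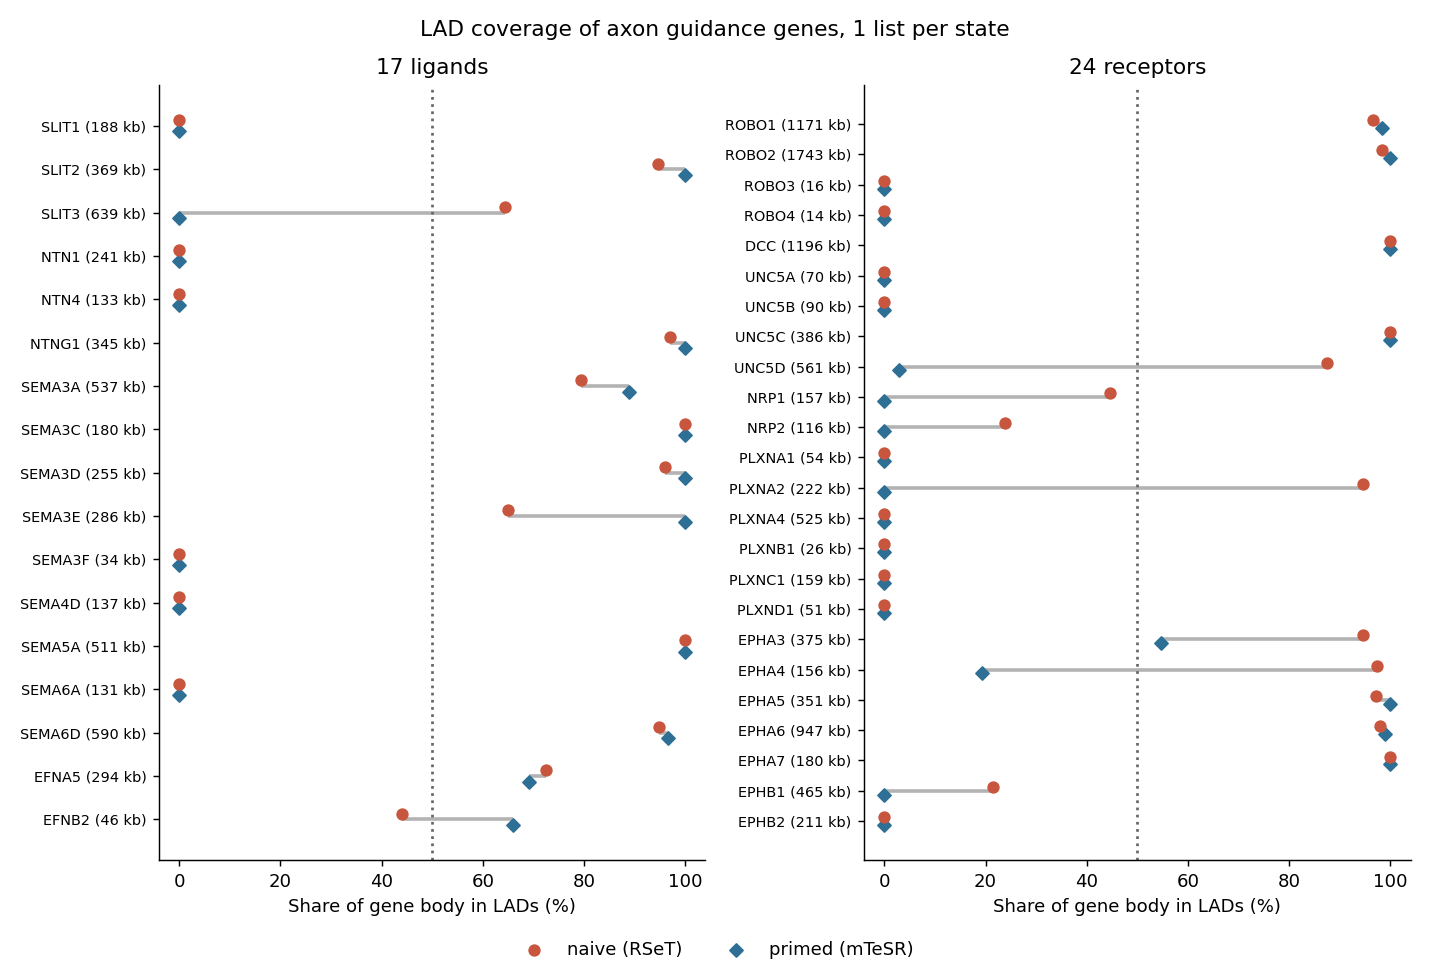
Share of each member's gene body in LADs (percent, horizontal axis), with ligands on the left and receptors on the right, circles for the naive list and diamonds for the primed list, and the body length in brackets. The dotted line marks 50%. Most members sit at 0% or near 100% in both lists, and the longest grey lines belong to PLXNA2, UNC5D, EPHA4 and SLIT3, all higher in naive.

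The 3 SLIT genes, which encode secreted repellents, had 3 different patterns. SLIT2 (chromosome 4, 20251905 to 20620561) had 94.6% of its body in naive LADs and 100% in primed. SLIT3 (chromosome 5, 168661740 to 169301139) had 64.3% of its body in naive LADs and 0% in primed, and SLIT1 on chromosome 10 had 0% in both. Their receptors split by gene length. The 2 long neuronal receptors lay deep in LADs, ROBO1 (chromosome 3, 78597239 to 79767998, 1171 kb) at 96.6% in naive and 98.3% in primed and ROBO2 (75906675 to 77649964, 1743 kb) at 98.3% and 100%. LADs also filled the 947 kb between them, at 100% in naive and 98.9% in primed. ROBO3, a receptor of commissural axons, and ROBO4, found in endothelium, are neighbours of 16.0 and 14.2 kb on chromosome 11 and were covered at 0% in both states.

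In the netrin system the secreted attractant and its main receptor lay on opposite sides. NTN1, the netrin-1 gene on chromosome 17, was covered at 0% in both states although it spans 241 kb, and NTN4 was also at 0% in both. DCC (chromosome 18, 52340197 to 53535899, 1196 kb) lay wholly inside 1 LAD in each list, of 2790 kb in naive and 3040 kb in primed. NTNG1, which encodes the membrane-anchored netrin-G1, had 97.1% of its body in naive LADs and 100% in primed. Of the UNC5 receptors, UNC5C on chromosome 4 was covered at 100% in both states and UNC5A and UNC5B at 0% in both. UNC5D (chromosome 8, 35235475 to 35796540) had 87.5% of its body in naive LADs and 2.95% in primed. The 4 UNC5 genes thus fell into 3 classes, and the 2 outside LADs were the shortest, at 70.3 kb for UNC5A and 90.3 kb for UNC5B.

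Of 9 semaphorin genes, 6 lay in LADs of both states, and these were the 6 longest. Over protein-coding genes this share was 15.4% for all and 44.5% for those of 200 kb or longer. SEMA3A, SEMA3C, SEMA3D and SEMA3E, all secreted class 3 ligands, lie together on chromosome 7 between 80742538 and 85250243. This region of 4508 kb was covered at 93.6% in naive, in 17 pieces, and at 98.7% in primed, in 4 pieces. SEMA3E had 65.0% of its body in naive LADs and 100% in primed, with an opening of 80 kb in naive (83400001 to 83480000). SEMA3A stood at 79.5% in naive and 88.8% in primed, and SEMA3D at 96.1% and 100%. The 2441 kb between SEMA3C and SEMA3E stood at 97.1% in naive and 100% in primed, while those between SEMA3E and SEMA3A (307 kb) and between SEMA3A and SEMA3D (503 kb) stood at 100% in both lists. The membrane-bound SEMA5A was at 100% in both, and SEMA6D at 94.9% in naive and 96.6% in primed. SEMA3F, SEMA4D and SEMA6A were at 0% in both.

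Receptors of semaphorins were mostly outside LADs, as most genes are. In LADs of neither state were 5 of 6 plexins and 2 of 2 neuropilins, beside 79.3% of all protein-coding genes. Of 6 plexins only PLXNA2 (chromosome 1, 208022242 to 208244384) had any covered window, at 94.5% in naive and 0% in primed. PLXNA4, a plexin gene of 525 kb on chromosome 7, had none in either list. PLXND1, known as the receptor that SEMA3E binds without a neuropilin, was at 0% in both states, and so was PLXNB1, the receptor of SEMA4D. The neuropilin genes had LAD windows in the naive list alone, NRP1 (chromosome 10, 33177493 to 33334667) at 44.5% in naive and 0% in primed and NRP2 (chromosome 2, 205682501 to 205798131) at 23.8% and 0%. Neither reached 50%, but with LADs less than 50 kb apart joined they stood at 77.9% and 58.4% in naive and at 0% in primed, and then counted as naive only. The longest naive LAD that met NRP1 was 40 kb and that of NRP2 10 kb, so without LADs under 50 kb both stood at 0% in naive.

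Ephrin ligands and EPH receptors made up the last system. EFNA5, a membrane-anchored ephrin-A gene, stood at 72.5% in naive and 69.1% in primed, and without LADs under 50 kb it left LADs in both states, at 48.7% in naive and 45.3% in primed. EFNB2 (chromosome 13, 106489745 to 106535662), a transmembrane ephrin gene, stood at 44.1% in naive and 65.9% in primed. This was the only member in primed LADs only, and the change amounted to 1 window of 10 kb at the border of a LAD that covered the 3′ end in both lists. Of the ephrin-A receptors, EPHA5, EPHA6 and EPHA7 stood at 97.2% to 100% in naive and 98.9% to 100% in primed. EPHA3 (chromosome 3, 89107621 to 89482134) stood at 94.7% in naive and 54.6% in primed, and without LADs under 50 kb at 86.6% and 25.2%, which made it naive only. EPHA4 (chromosome 2, 221418027 to 221574202), a receptor that binds ephrins of both the A and B kind, stood at 97.3% in naive and 19.2% in primed. EPHB1 stood at 21.5% in naive and 0% in primed, and EPHB2 at 0% in both.

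Ligands and receptors were set side by side as counts, with no test because the members were named and not sampled. The 17 ligands divided into 10 in naive LADs and 7 outside, and again 10 and 7 for primed LADs. Naive LADs held 11 of the 24 receptors, and primed LADs held 8. Length differed between the roles, with a median body of 255 kb for ligands and 195 kb for receptors. Among members of 200 kb or longer, 9 of 10 ligands and 9 of 12 receptors were in naive LADs, and 8 of 10 and 7 of 12 in primed LADs, against 52.9% of such protein-coding genes in naive and 46.6% in primed. Among shorter members, 1 of 7 ligands and 2 of 12 receptors were in naive LADs, and 2 of 7 and 1 of 12 in primed LADs, against 16.3% and 15.1% of shorter protein-coding genes. The shares of the short members are thus near those of other short genes. Receptors held 3 of the 4 naive-only members, and the ligand SLIT3 was the other one.

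**Figure D2:**
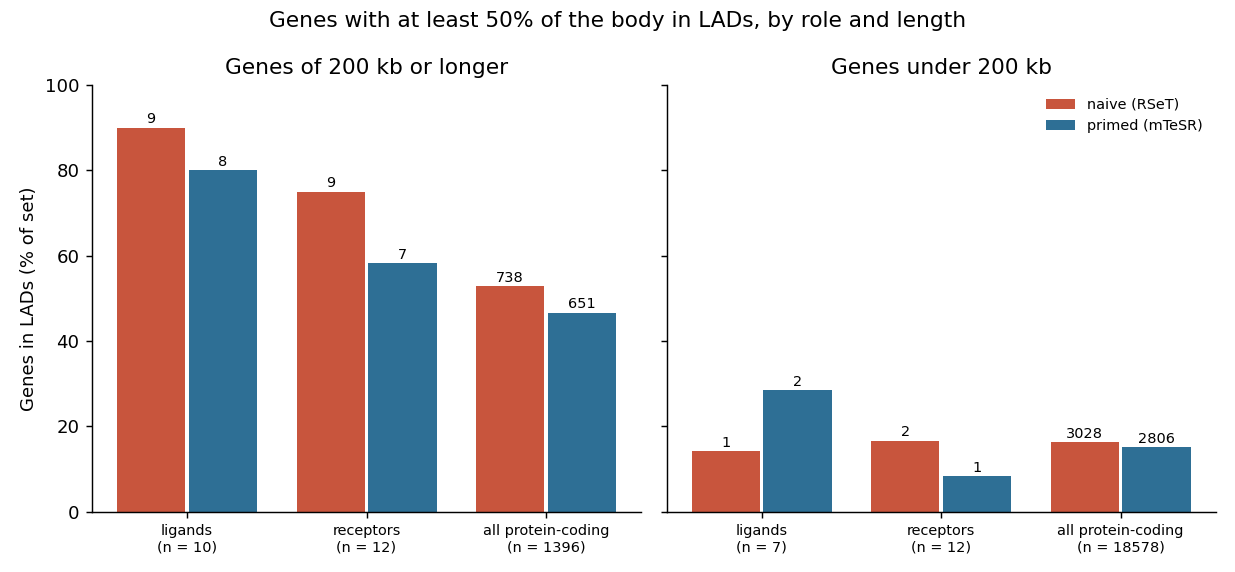
Share of genes in LADs (percent of each set, vertical axis) for ligands, receptors and all protein-coding genes, split at a body length of 200 kb, with naive bars left of primed bars and the number of genes above each bar. Long ligands and long receptors stand above the 52.9% and 46.6% of all long genes in naive and primed, and the short members rest on 1 or 2 genes per bar.

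The 5 members that changed class were examined along their length. SLIT3 was met by 13 naive pieces of 10 to 80 kb, together 411 kb, and by no primed piece, and its start lay 1291 kb from the nearest primed LAD. The 500 kb beyond its 5′ end stood at 89.8% in naive and 0% in primed, so the naive-only coverage ran past the gene. Because its pieces were short, SLIT3 dropped to 39.3% in naive without LADs under 50 kb, and to 0% without LADs under 100 kb. In UNC5D, 6 naive pieces covered 491 kb, the longest of 247 kb, whereas 2 primed pieces covered 16.5 kb. Its flanks of 500 kb were covered in both states, at 90% and 100% in naive and 70.9% and 82.0% in primed, so the primed list had an opening over the gene. PLXNA2 held 1 naive piece of 210 kb that ended 4.38 kb short of the start, and the nearest primed LAD lay 25.6 kb from the start, outside the gene. EPHA4 held 1 naive piece of 152 kb, part of a LAD of 1600 kb, and 3 single primed windows. With LADs less than 50 kb apart joined, its primed coverage came to 58.9%, which placed it in LADs of both states. Of 4 settings that join nearby LADs or leave out short ones, UNC5D and PLXNA2 kept the naive-only call in all, and SLIT3 and EPHA4 in 2 each. Leaving out short LADs could not remove the 210 kb piece of PLXNA2. With 90% of the body required, SLIT3 and UNC5D were in LADs of neither state. With 10% required, EPHA4 was in LADs of both. By the start window, PLXNA2 and EPHA4 were in LADs of neither state, and that of UNC5D was not read.

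**Figure D3:**
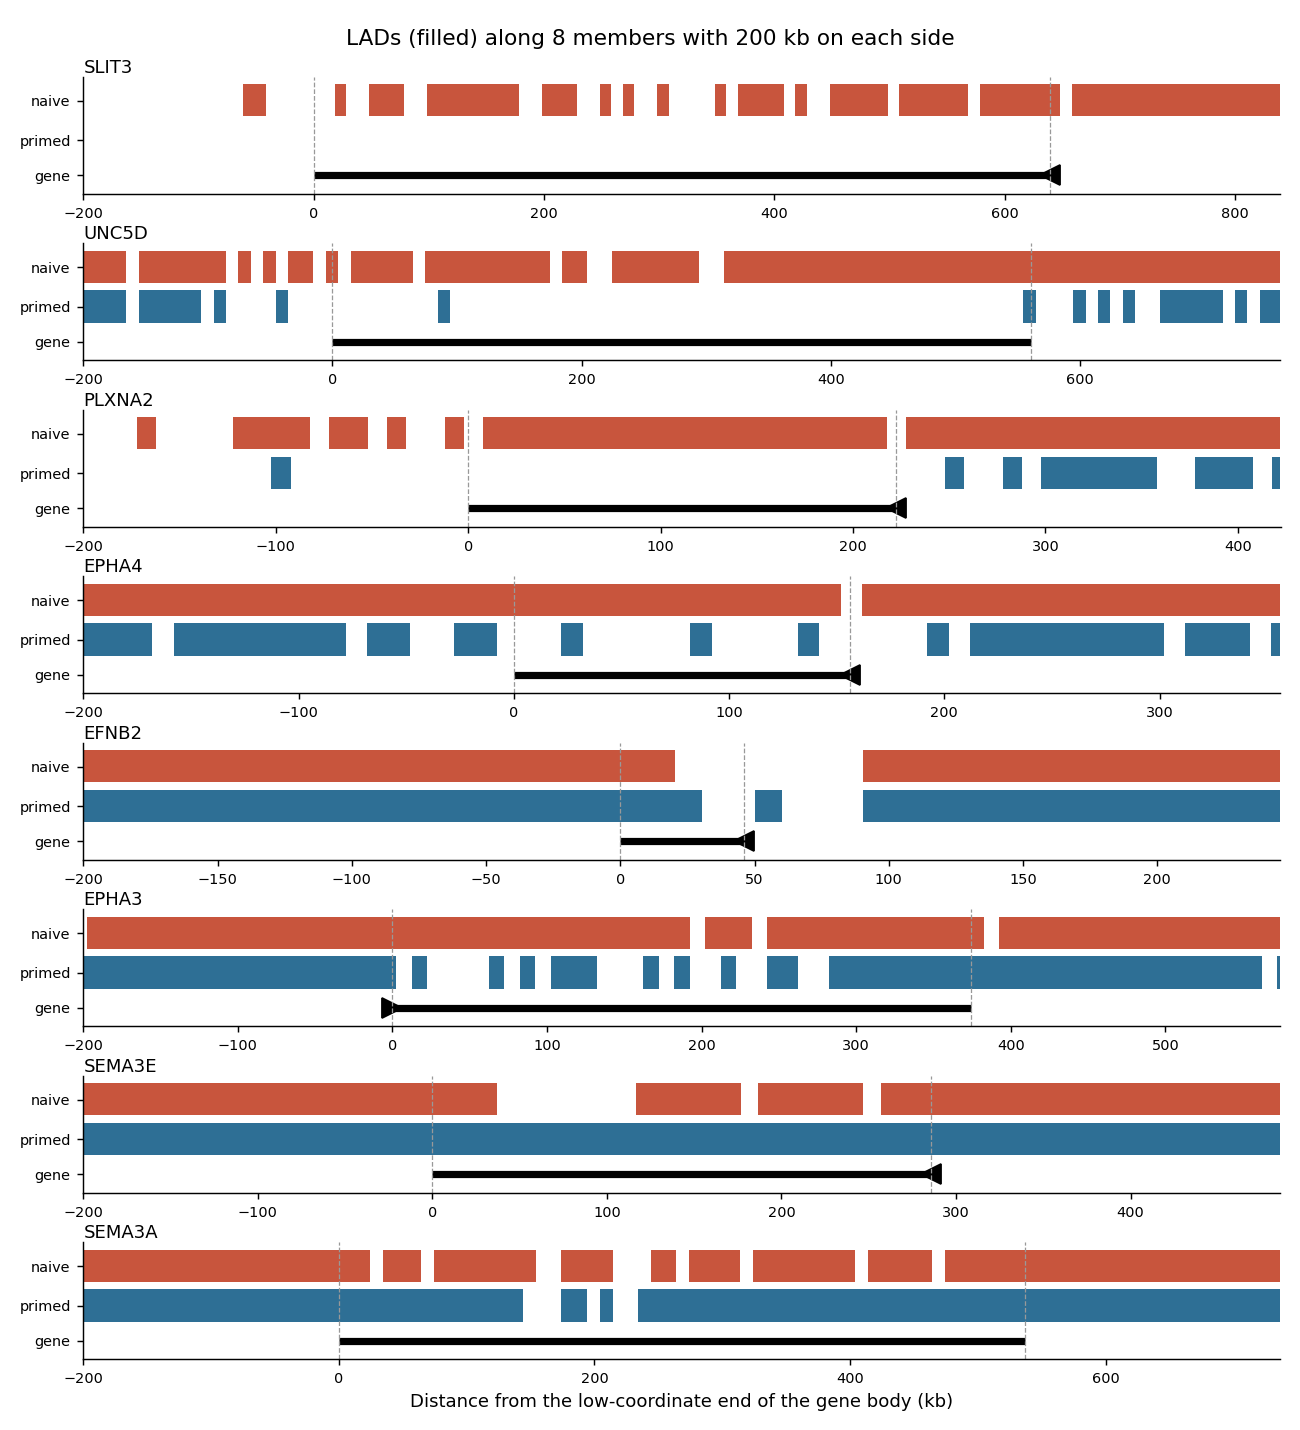
LAD intervals (filled boxes) of the naive list above those of the primed list along 8 members and 200 kb on each side, with the distance from the low-coordinate end of the gene body in kb on the horizontal axis. The black bar is the gene, and the arrowhead marks its start and points in the direction of transcription where the strand was at hand. SLIT3 shows 13 naive pieces and no primed one, EPHA3 shows 3 naive against 10 primed pieces, and SEMA3E is filled throughout in primed.

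Most small differences in the members were toward primed, and most large ones toward naive. Of the 41 members, 9 had a higher covered share in naive and 11 in primed, and 21 were equal, beside 8.45%, 6.12% and 85.4% of all protein-coding genes. Among the 22 members of 200 kb or longer these counts were 6, 10 and 6, beside 27.7%, 20.8% and 51.6% of long genes. Differences under 20 points were higher in naive for 1 member and in primed for 9, and over all protein-coding genes for 586 and 606. All of these members were 200 kb or longer, and over protein-coding genes of that length the numbers were 202 and 246. Differences of at least 20 percentage points, a limit chosen after the values were seen, were higher in naive for 8 members (5.51% of all protein-coding genes and 13.2% of those of 200 kb or longer) and higher in primed for 2, SEMA3E and EFNB2 (3.08% and 3.15%). Of the 8, 7 were receptors: UNC5D, NRP1, NRP2, PLXNA2, EPHA3, EPHA4 and EPHB1. In NRP1, NRP2 and EPHB1 the difference rested on short naive LADs, of at most 40, 10 and 20 kb. Among members of 200 kb or longer, 3 of 22 were in naive LADs only and 0 in primed LADs only, beside 8.38% and 2.15% of long protein-coding genes. In the other 9 members with more primed coverage, the naive minus primed difference ran from -1.06 points (EPHA6) to -9.31 points (SEMA3A), and in 8 of these the primed list held 1 to 3 windows that the naive list lacked.

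The LAD pieces inside long genes were also counted. The 22 members of 200 kb or longer were met by 75 naive pieces and 37 primed pieces. More pieces lay in naive for 14 of them and in primed for 2, EPHA3 and EFNA5, and 6 had equal numbers. Over all 1396 long protein-coding genes the naive list also had more pieces in all, 2849 naive and 1901 primed, with more in naive for 32.6% of genes, more in primed for 11.6% and equal numbers for 55.8%. In the members a naive piece averaged 134 kb and a primed piece 243 kb, beside 122 and 164 kb over all long genes. In the 15 long members that were in LADs of both states, there were 46 naive and 35 primed pieces, or 3.07 and 2.33 per gene, beside 2.19 and 1.91 per gene over 621 such protein-coding genes (44.5% of the long ones). Just 1 piece was found in 3 of the 15 genes in naive and in 9 of them in primed, beside 51.2% and 68.6% of the 621 genes. SLIT3 had the most naive pieces (13) and EPHA3 the most primed pieces (10). Of the naive gaps in the 15 genes, 24 of 31 were a single window, and of the primed gaps 9 of 20. Over the 621 genes single windows made up 79.6% of the naive gaps and 71.5% of the primed gaps, so the naive share in the members is near the general one. SEMA3A was met by 9 naive pieces of 20 to 80 kb in place of 4 primed pieces of 10 to 303 kb. Gaps of this size decide the counts, since closing gaps under 50 kb left the long members with 22 naive and 17 primed pieces.

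**Figure D4:**
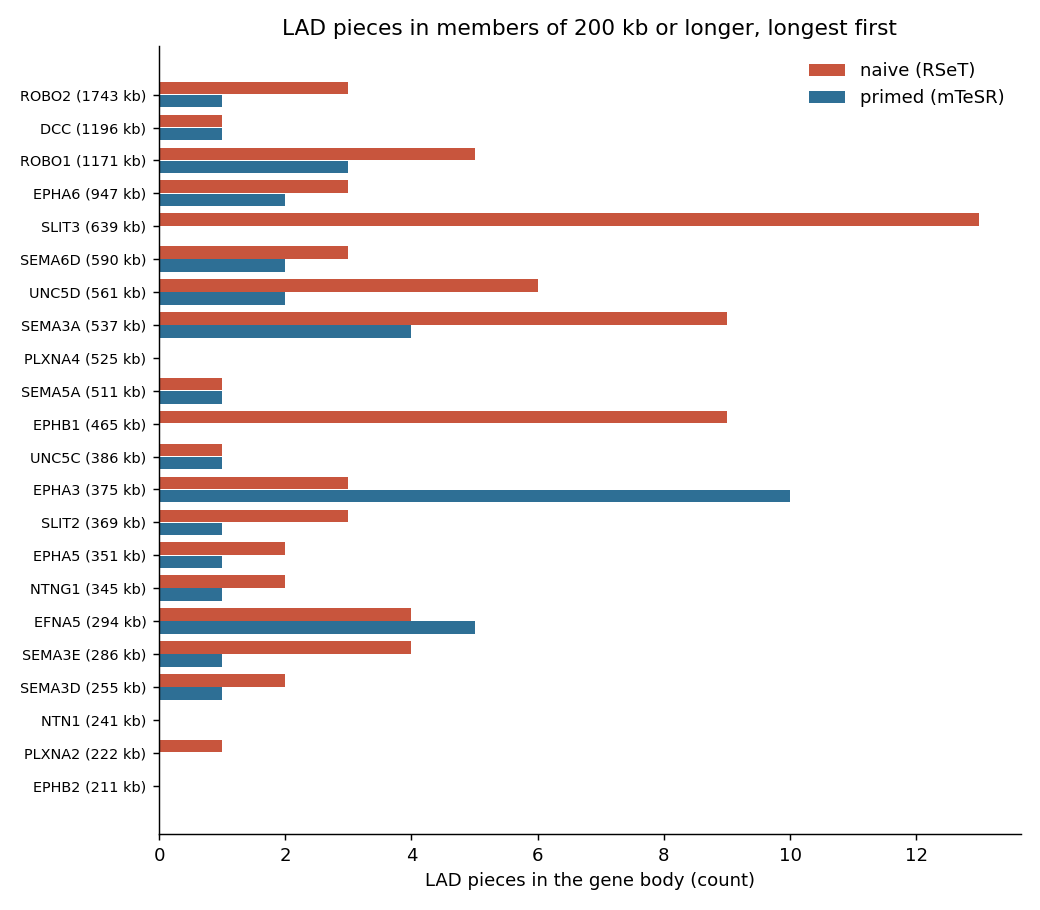
Number of LAD pieces overlapping each of the 22 members of 200 kb or longer (horizontal axis, count), longest gene at the top, with the naive bar above the primed bar. SLIT3 has 13 naive pieces and 0 primed pieces, EPHB1 has 9 and 0, EPHA3 has 3 and 10, and PLXNA4, NTN1 and EPHB2 have none in either list.

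The gene's 5′ end was not always covered with the body. A strand was at hand for 35 members, not for NTN1, UNC5B, UNC5D, SEMA3A, SEMA6A and NRP1. The start window and the distances to a LAD use the 5′ end of the RefSeq gene body. The windows within 20 kb of a start, given below, use the annotated starts of the promoter table. The 2 can differ, as in PLXNA4, whose body ends at 132648688 and whose annotated start is at 132576470. The 10 kb window at the start lay in a LAD for 17 of the 35 in naive and 15 in primed, beside 17.8% and 17.4% of the 15813 protein-coding genes with a strand. Among members of 200 kb or longer it did so for 14 of 19 in naive and 13 in primed, beside 45.0% and 43.3% of long genes. In naive, 3 of 19 covered genes, PLXNA2, EFNA5 and EPHA4, had their start outside a LAD, and in primed 2 of 17, EFNA5 and EFNB2. Over all protein-coding genes this was so for 15.2% of the covered genes in naive and 8.77% in primed. Among long members it was so for 2 of 16 in naive and 1 of 14 in primed, beside 18.3% and 12.7% of long covered genes, so these shares are near the general ones. The start of EFNA5 lay 0.937 kb from a LAD in both lists, that of EPHA4 4.20 kb away in naive and 14.2 kb in primed. NRP2 was the reverse, with its start inside a naive LAD of 10 kb and 23.8% of its body covered in naive. In 14 long members in LADs of both states with an annotated start, 9 of 67 windows within 20 kb of a start were uncovered in naive (13.4%) and 4 in primed (5.97%), against 3.50% and 3.38% of windows farther away. Over 521 such protein-coding genes the shares near a start were 7.64% and 7.27%, and farther away 4.16% and 4.13%. The naive gaps near a start were in NTNG1, SEMA6D, ROBO1, EPHA6, SLIT2, EPHA5 and EFNA5, and windows of 1 gene are not independent. This measure was chosen after the values were seen.

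Members in LADs had fewer genes around them. Counting other protein-coding genes whose midpoint lay within 1000 kb of the body, the median density was 0.875 per Mb for the 17 members in LADs of both states and 10.05 per Mb for the 19 in neither, beside 4.44 and 13.5 per Mb for all protein-coding genes of these classes. For those of 200 kb or longer it was 3.14 and 6.60 per Mb. The 2 classes of members differ in length, with median bodies of 375 and 131 kb, and the density is taken over the body and its flanks. ROBO1 and UNC5D had no neighbour by this count (ROBO2 ends within 1000 kb of ROBO1, but its midpoint lies farther away), whereas SEMA3F had 52 and PLXNB1 had 51. PLXNA4 stood apart, with 1.19 neighbours per Mb and no LAD within 841 kb of the 5′ end of its body in naive or 971 kb in primed. Over the 41 members, Spearman's rho between length and covered share was 0.643 in naive and 0.567 in primed, and over all 19974 genes it was 0.246 and 0.206. These are descriptions over genes, which share chromosomes and LADs.

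Other genes of these families, listed with related guidance genes such as RGMB and DSCAM, were almost free of LADs. Of 35 other family members (23 ligands and 12 receptors), 1 was in LADs of both states, RGMB, which encodes a repulsive guidance molecule. This is 2.86%, beside 15.4% of all protein-coding genes and 13.2% of those under 200 kb. None of the 35 was in LADs of 1 state only, beside 3.44% of all genes for naive and 1.89% for primed. They were short, with a median body of 19.5 kb. DSCAM, a netrin receptor gene of 836 kb on chromosome 21, was covered at 13.2% in naive, in 11 single windows, and 0% in primed. EPHB6, an EPH receptor gene of 16.0 kb without kinase activity, had 0% of its body in naive LADs and 30.7% in primed ones, below the limit of 50%. Of 33 signalling partners, 7 were in LADs of both states (21.2%, beside 15.4% of all protein-coding genes) and none in LADs of 1 state only. Among the 13 partners of 200 kb or longer 5 were in LADs of both states (38.5%, beside 44.5% of long genes), so these shares are near those of other genes. They included LRRC4C, the receptor of netrin-G1, at 98.5% in naive and 100% in primed, and SRGAP1, a GTPase activator that binds ROBO, at 100% and 98.3%. The other 5 were ABLIM1, NRCAM, CHL1, FLRT2 and FLRT3, of which ABLIM1, an actin-binding gene, stood at 89.2% in naive and 67.9% in primed. The related ABLIM3 was outside LADs in both states by the 50% limit, at 42.0% in naive and 0% in primed.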

How the data were processed

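The samples were 12 pA-DamID libraries of the H9 line in 4 groups of 3, LMNB1 and Dam-only for naive and for primed cells. The authors deposited LAD intervals as chromosome, start and end, with no count, signal or other value. The labels call the lists final and the files are named simple; the difference is not stated. BWA, SAMtools 1.10, SICER and hg38 are named in the submitters' processing notes (thresholds and library merging not given in the sources used here). Depth is unknown, and a window with few mappable reads or GATC sites may look like one away from the lamina.

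Covered shares were computed for RefSeq gene bodies (GRCh38.p14, whose primary assembly is that of hg38), 1-based. All 41 members and 68 other pathway genes matched by symbol. Members and lists were chosen with earlier results of these data known. Described in full were members in LADs of 1 state only, the 6 largest differences, the 4 longest with a LAD piece and those with most pieces; other pathway genes were to be named where they were in LADs of 1 state only, up to 4 per direction, and none was. The pathway genes that are named were chosen after their values were seen. The alternatives were joining LADs (gaps below 50 or 100 kb), dropping LADs shorter than 50 or 100 kb, asking for 10% or 90% of the body, and reading the start window. Functions were tested on simulated lists in Python 3.11.15 with numpy 2.4.6 and pandas 2.3.3; SciPy 1.17.1 gave correlations and matplotlib 3.10.9 the figures.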

Additional observations from a re-analysis of the deposited data

How the results depend on the processing

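With 41 members, 36 to 38 kept their class when LADs were joined or short ones left out (4 settings), 36 with 10% of the body required, 34 with 90%, and 30 of the 35 with a known strand by the start window. Members in naive LADs and in primed LADs stayed within 1.5 times their counts of 21 and 18 under all 7 settings. The number in primed LADs only (1) was 0 with LADs less than 100 kb apart joined, 0 with 10% required, 0 by the start window and 3 without LADs under 100 kb. The number in naive LADs only (4) was 5 and 6 with LADs less than 50 and 100 kb apart joined. It was 6 with 10% required, 3 with 90% required and 2 by the start window. Without LADs under 50 or 100 kb it stayed at 4, but SLIT3 left the group and EPHA3 entered it. Ligands in naive LADs (10) numbered 6 without LADs under 100 kb and 6 with 90% required. Pieces in long members (75 naive, 37 primed) numbered 22 and 17 once gaps under 50 kb were closed, 19 and 17 once those under 100 kb were closed, 44 and 21 without LADs under 50 kb, and 32 and 21 without LADs under 100 kb. The joining and filtering settings change pieces by construction. Without LADs under 100 kb, SEMA3A (16.2% in naive, 83.2% in primed) and SEMA3E (23.1% and 100%) became primed only. When gaps under 100 kb were closed, EPHB1 (84.9% and 0%) became naive only and EFNB2 and EPHA4 (100% in each state) lay in LADs of both. The naive LADs that met EPHB1 were at most 20 kb long, so leaving out those under 50 kb took it to 0%. No paired analysis was possible because each state has 1 list that does not keep its replicates apart, and for the same reason no replicate could be left out.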

Other observations

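Some ligands were set beside a known receptor, and not all known pairs are listed. The covered shares of ligand and receptor in naive and primed were alike for SLIT2 with ROBO1 and ROBO2 (94.6% to 98.3% in naive, 98.3% to 100% in primed) and for NTNG1 with LRRC4C (97.1% and 98.5% in naive, 100% each in primed). The shares were also alike for SEMA4D with PLXNB1 and for NTN1 with UNC5A and UNC5B (0% in all). They were unlike for SLIT1 (0% in both states) and SLIT3 (64.3% in naive, 0% in primed) with the same ROBO1 and ROBO2, for NTN1 (0% in both states) with DCC and UNC5C (100% in both), and for SEMA3E (65.0% in naive, 100% in primed) with PLXND1 (0% in both). The shares were also unlike for SEMA3A (79.5% in naive, 88.8% in primed) with NRP1 (44.5% and 0%). These pairs were picked after the values were seen and were not tested.

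EPHA3 and SEMA3E differed in opposite directions. In EPHA3 the primed list lacked 150 kb that the naive list held, with 0 kb the other way, and in SEMA3E the naive list lacked 100 kb that the primed list held, with 0 kb the other way.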
